A study of Homo sapiens with 4 samples.

Results

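The 10 genes described here belong to transforming growth factor beta (TGF-beta) signalling: the ligands TGFB1 and TGFB2, the receptors TGFBR1 and TGFBR2, the latent TGF-beta binding proteins LTBP1, LTBP2, LTBP3 and LTBP4, and PMEPA1 and SKIL, target genes whose products act back on the pathway. They were chosen by name, with earlier results of these data known, and found by Ensembl gene ID. They were 10 of 17041 genes in the expression table, and all 10 were among the 10182 genes tested. In the splicing table, 4 of 3768 junction events belonged to 2 of the 10 genes, LTBP4 and SKIL. Polyadenylated RNA was sequenced from A549, a human lung adenocarcinoma cell line, in 2 libraries of cells with RBM10 knockdown and 2 libraries of RBM10 wild-type cells. RBM10 binds RNA and controls the choice of exons in splicing. Knockdown cells were a transduced population carrying 1 lentiviral shRNA against RBM10 and were kept in puromycin at 1 µg/mL for 10 to 14 days. Whether the wild-type cells were also given a control construct or drug selection is not stated, and loss of RBM10 and transduction or selection cannot be told apart. All 4 libraries carry the same batch label.

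TGF-beta is secreted in a latent form, in which the mature ligand is held by its own propeptide. LTBP1, LTBP3 and LTBP4 bind that propeptide covalently and tether the latent complex to fibrillin and fibronectin in the matrix, while LTBP2 is a matrix protein of the same family that does not bind latent TGF-beta. Once released, the ligand binds the type II receptor TGFBR2, which phosphorylates the type I receptor TGFBR1, and TGFBR1 phosphorylates SMAD2 and SMAD3. In lung epithelial cells, including A549, the pathway is known for growth arrest and for induction of mesenchymal and matrix genes.

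RBM10 mRNA was at 11.6 and 10.9 RPKM in knockdown libraries, against 35.5 and 40.8 RPKM in wild-type libraries, a mean of 29.5% of wild type. RBM10 shares exon sequence with an annotated gene on the opposite strand, whose part in these values was not tested. RPKM is a read number scaled by gene length and by library depth. The values appear to rest on reads over splice junctions. Ratios, shares and orders of RPKM between different genes may therefore also depend on their junctions, which was not tested. Library depth was 84.5% and 95.6% in knockdown and 99.0% and 100% in wild type, as a share of that of wild-type replicate 2. All 6 markers of A549 and lung adenocarcinoma epithelium were above 1 RPKM, and their summed level was 5654 and 5752 RPKM in knockdown and 5127 and 5376 RPKM in wild type. Within that sum the keratins KRT8, KRT18 and KRT7 and EPCAM were higher in both knockdown libraries, and CDH1 slightly so. KRT18 was at 1731 and 1855 RPKM in knockdown, against 890 and 973 RPKM in wild type. AKR1B10 was lower, at 1309 and 1442 RPKM against 2770 and 2687 RPKM in wild type. Of 5 fibroblast markers, THY1 alone reached 1 RPKM, with a summed level over the 4 listed markers of 2.01 to 2.12 RPKM in knockdown and 0.562 to 0.838 RPKM in wild type, and PDGFRB, PDGFRA and LUM were at or under 0.177 RPKM in every library. Of 4 leukocyte markers, 2 were listed, CD68 at 3.49 and 3.57 RPKM in knockdown and 1.56 and 1.72 RPKM in wild type, and LYZ at or under 0.0504 RPKM. The 1 listed endothelial marker of 4, PECAM1, was at or under 0.0130 RPKM. THY1 and CD68 were higher in both knockdown libraries, as were PDGFRB, PDGFRA and LUM at very low levels. The part of these 5 genes in the results below was not tested. In bulk RNA, fewer cells of a type and less RNA per cell cannot be told apart.

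Of the 10 genes, 9 rose in knockdown cells, 0 fell, and TGFBR2 did not pass (limma on log2(RPKM + 1), Benjamini-Hochberg adjusted p under 0.05 over all tested genes). Over all tested genes, 15.3% were called higher, 7.03% lower and 22.3% in either direction by the same rule. The median log2 change of the 10 was 0.99, beside 0.02 over all tested genes. Separate cultures are not named for the replicates, so each p-value is set against a spread of 4 libraries that may be technical only. Changes on the log2(RPKM + 1) scale understate those of genes at low levels, so folds of mean RPKM are given beside them.

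**Figure D1:**
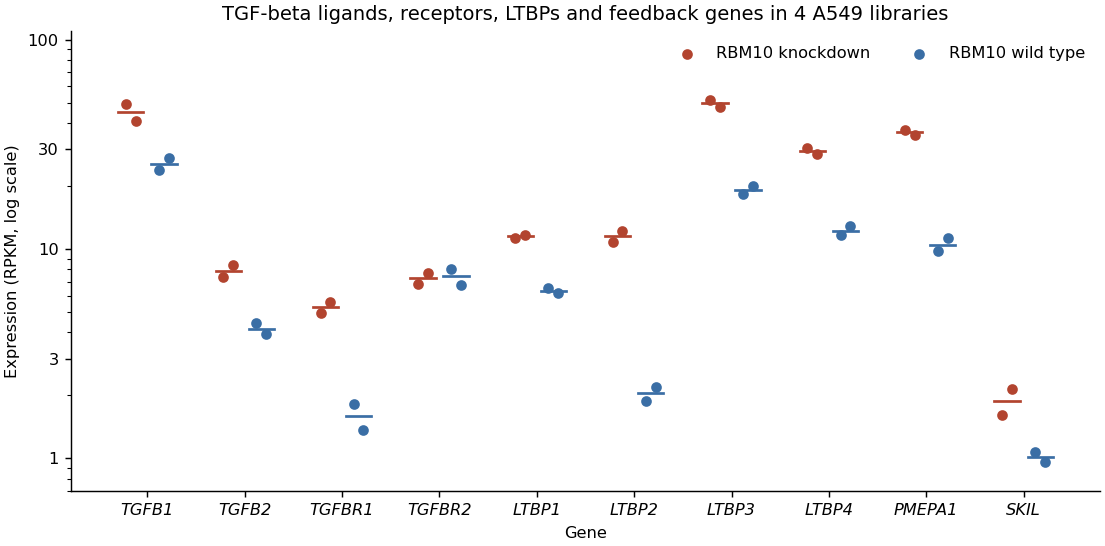
RPKM of the 10 genes in each library on a log scale, with points for single libraries and a line for the mean of 2. Knockdown points lie above both wild-type points in every gene except TGFBR2, where the groups overlap.

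Both ligands rose by a similar factor. TGFB1, the main TGF-beta isoform of epithelial and immune cells (chromosome 19, 41301587 to 41353911, hg38), was at 49.3 and 40.7 RPKM in knockdown libraries, against 23.9 and 27.3 RPKM in wild-type libraries. Its mean was 1.76-fold higher, with a log2 change of 0.79 (SE 0.12; adjusted p = 0.00148). TGFB2, a ligand that binds TGFBR2 weakly without a co-receptor (chromosome 1, 218346235 to 218444619), was at 7.34 and 8.38 RPKM in knockdown, against 4.42 and 3.92 RPKM in wild type. That was a fold of 1.88 and a log2 change of 0.78 (SE 0.12; adjusted p = 0.00148). For neither ligand did the groups overlap, as held for 34.3% of all tested genes in this direction. The ratio of TGFB1 to TGFB2 was 6.72 and 4.86 in knockdown and 5.39 and 6.97 in wild type, so the groups overlapped. TGFB1 had the higher RPKM of the 2 in every library. TGFB1 shares exon sequence with HNRNPUL1 on the opposite strand, and the use of strand in counting is not given in the sources used here. HNRNPUL1 was at 50.5 and 51.6 RPKM in knockdown and 52.6 and 52.3 RPKM in wild type and did not pass (adjusted p = 0.801).

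Of the receptors, TGFBR1 rose and TGFBR2 did not pass. TGFBR1, the type I receptor kinase (chromosome 9, 99104038 to 99154192), was at 4.96 and 5.59 RPKM in knockdown libraries, against 1.82 and 1.37 RPKM in wild-type libraries. It rose 3.31-fold, with a log2 change of 1.28 (SE 0.13; adjusted p = 0.000121), and its change exceeded that of 98.9% of tested genes. TGFBR2, the ligand-binding type II receptor kinase (chromosome 3, 30606502 to 30694142), was at 6.80 and 7.69 RPKM in knockdown, against 8.07 and 6.76 RPKM in wild type. The groups overlapped, and the log2 change was -0.03, with a 95% interval of -0.30 to 0.25 (adjusted p = 0.90). The ratio of TGFBR1 to TGFBR2 was thus 0.728 in each knockdown library, against 0.225 and 0.202 in wild type. The ratio is a description, since the exact permutation test of a single value over 2 against 2 libraries gives a two-sided p of 0.333 at the lowest. The co-receptor TGFBR3 stayed under the filter of 1 RPKM, at 0.605 and 0.707 RPKM in knockdown and 0.678 and 0.442 RPKM in wild type. The ligand TGFB3 was at or under 0.0844 RPKM in every library, which by the steps of its values was 6 and 14 reads in knockdown and 5 and 11 reads in wild type.

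**Figure D2:**
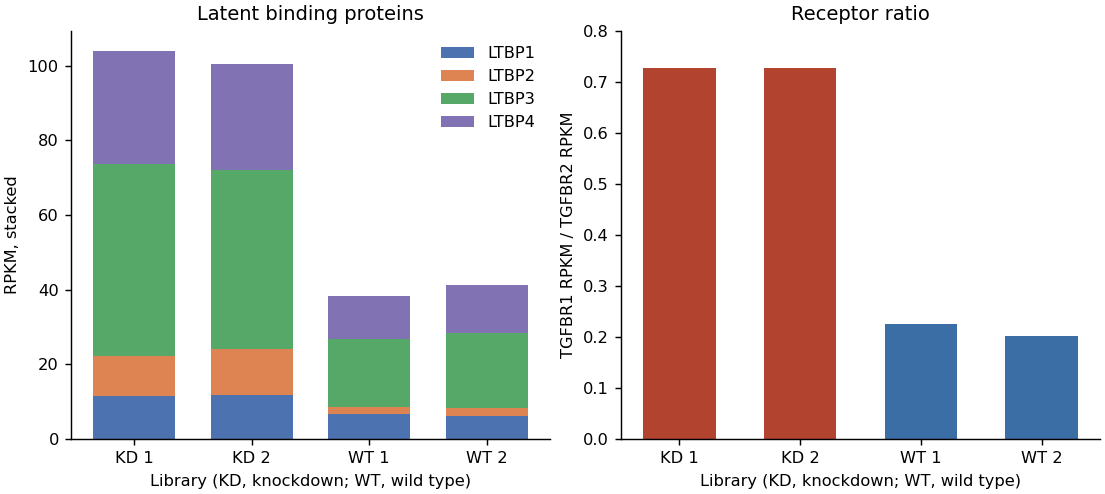
Left, stacked RPKM of the 4 latent binding protein genes in each library; right, RPKM of TGFBR1 divided by RPKM of TGFBR2. The stack reached 104 and 101 RPKM in knockdown and 38.4 and 41.2 RPKM in wild type, and the receptor ratio was 0.728 in both knockdown libraries against 0.225 and 0.202.

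All 4 latent binding protein genes rose, LTBP2 by the largest factor of the 4. LTBP2 (chromosome 14, 74498170 to 74612378) was at 10.8 and 12.2 RPKM in knockdown libraries, against 1.89 and 2.20 RPKM in wild-type libraries. Its fold was 5.64, and its log2 change of 2.04 (SE 0.12; adjusted p = 5.77e-06) ranked 21 from the highest of 10182. In wild type LTBP2 had the lowest RPKM of the family, and in knockdown it reached the RPKM of LTBP1, with which its libraries overlapped. LTBP1, the founding carrier of latent TGF-beta (chromosome 2, 32946972 to 33399509), was at 11.4 and 11.7 RPKM in knockdown, against 6.54 and 6.14 RPKM in wild type. Its fold of 1.82 and log2 change of 0.77 (SE 0.11; adjusted p = 0.000809) were the smallest of the family. The ratio of LTBP2 to LTBP1 was 0.952 and 1.04 in knockdown and 0.288 and 0.358 in wild type.

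LTBP3, a carrier that is needed for TGF-beta secretion in bone and tooth (chromosome 11, 65538805 to 65558930), was at 51.6 and 48.0 RPKM in knockdown libraries, against 18.3 and 20.0 RPKM in wild-type libraries. Its fold was 2.603 and its log2 change 1.34 (SE 0.10; adjusted p = 2.35e-05). LTBP4, the carrier whose loss disturbs elastic fibres in the lung (chromosome 19, 40592883 to 40629818), was at 30.3 and 28.6 RPKM in knockdown, against 11.6 and 12.9 RPKM in wild type. That was a fold of 2.40 and a log2 change of 1.20 (SE 0.10; adjusted p = 5.38e-05). The ratio of LTBP3 to LTBP4 was 1.70 and 1.68 in knockdown and 1.57 and 1.55 in wild type. LTBP3 held 49.6% and 47.8% of the summed RPKM of the family in knockdown and 47.7% and 48.5% in wild type. The share of LTBP2 was 10.4% and 12.2% in knockdown, against 4.92% and 5.34% in wild type, and that of LTBP1 was 10.9% and 11.7%, against 17.0% and 14.9%. Per summed RPKM of TGFB1 and TGFB2, the sum of the carriers LTBP1, LTBP3 and LTBP4 was 1.65 and 1.80 in knockdown and 1.29 and 1.25 in wild type, a ratio that was not tested. LTBP1 and LTBP2 each share exon sequence with an annotated gene on the opposite strand, LTBP3 and LTBP4 with none. The part of such overlap in the LTBP1 and LTBP2 values was not tested.

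PMEPA1 and SKIL are induced by TGF-beta through SMAD proteins. PMEPA1, a membrane protein that sequesters receptor-activated SMADs (chromosome 20, 57648392 to 57711536), was at 37.1 and 35.2 RPKM in knockdown libraries, against 9.78 and 11.2 RPKM in wild-type libraries. It rose 3.44-fold, with a log2 change of 1.69 (SE 0.11; adjusted p = 9.43e-06). PMEPA1 shares exon sequence with the antisense RNA NKILA, which was at 2.19 RPKM in knockdown replicate 1 and at an identical 0.0697 RPKM in the other 3 libraries. An identical value in libraries of unlike depth appears to stand for no reads. NKILA did not pass (adjusted p = 0.164), and its part in the PMEPA1 values was not tested. SKIL, which encodes the SMAD corepressor SnoN (chromosome 3, 170357678 to 170396835), was at 1.61 and 2.14 RPKM in knockdown, against 1.07 and 0.956 RPKM in wild type. Its fold was 1.85 and its log2 change 0.51 (SE 0.13; adjusted p = 0.0178). On this scale that was the smallest change among the 9, while by fold TGFB1 and LTBP1 changed less. The call for SKIL did not hold under quantile normalization (adjusted p = 0.0587), without a filter on low values (0.086), without wild-type replicate 2 (0.063) or without knockdown replicate 2 (0.0764).

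**Figure D3:**
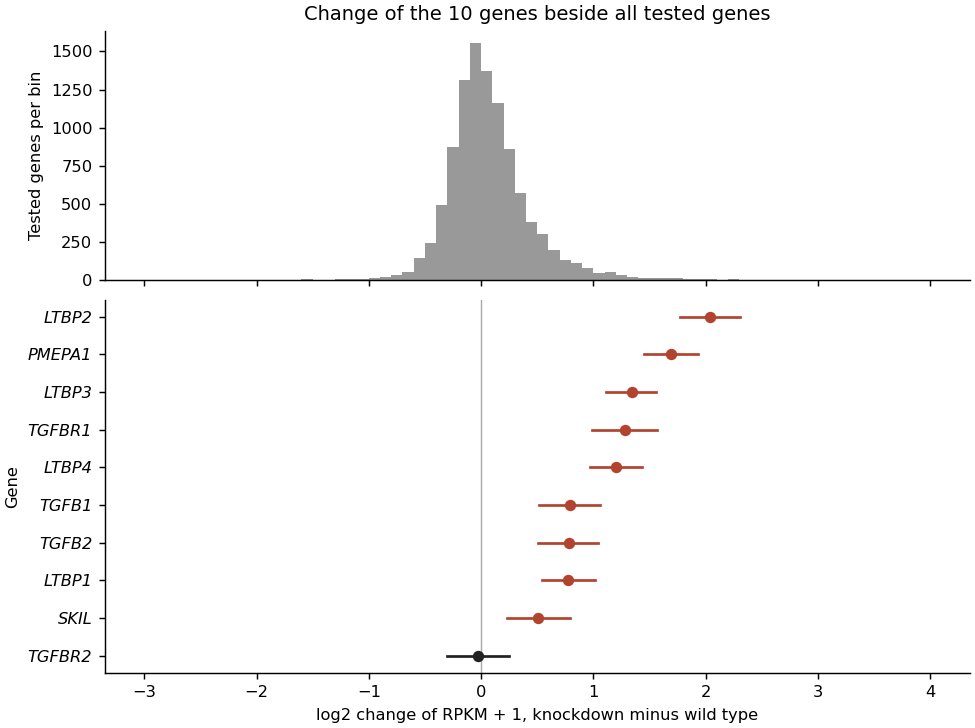
Top, number of tested genes in bins of 0.1 on the log2 scale, with changes beyond the axis placed in the outermost bins; bottom, log2 change with its 95% interval (limma) for the 10 genes. LTBP2 and PMEPA1 lie farthest right at 2.04 and 1.69, and the interval of TGFBR2 spans 0, from -0.30 to 0.25.

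RPKM within a group were ordered as follows, with the limit given above for comparisons between different genes. In knockdown libraries LTBP3, TGFB1, PMEPA1 and LTBP4 had the highest values, with means of 49.8, 45.0, 36.1 and 29.4 RPKM. SKIL was lowest there, at 1.87 RPKM. The libraries of LTBP3 and TGFB1, of LTBP1 and LTBP2, and of TGFB2 and TGFBR2 overlapped there. Within each knockdown library LTBP3 was above TGFB1 and TGFB2 above TGFBR2, while LTBP1 and LTBP2 changed order. Differences between neighbours were not tested. In wild-type libraries TGFB1 led with a mean of 25.6 RPKM, followed by LTBP3, LTBP4 and PMEPA1 at 19.1, 12.3 and 10.5 RPKM, and no 2 neighbours overlapped. TGFBR2 stood at place 8 of 10 in knockdown, with 7.25 ± 0.624 RPKM, and at place 5 in wild type, with 7.41 ± 0.924 RPKM (SD, n = 2 each). Over the 4 libraries, the genes whose mean-centred log2 profile lay nearest to that of LTBP2, the gene with the largest change, were TNS4, CGB8 and FLNC, at root mean square distances of 0.079, 0.080 and 0.096. CGB8 belongs to a family of near-identical copies that may share reads.

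The RPKM of each of the 10 genes were whole multiples of a gene-specific step in all 4 libraries, with a tolerance of 1e-10, and so gave a number of reads per library. The lowest was 263, for SKIL in wild-type replicate 2, and the highest 14125, for LTBP3 in knockdown replicate 2. Counting alone therefore gave an error of 6.17% or less for SKIL, 5.5% or less for TGFBR1 and 3.75% or less for the other 8 genes. These read numbers are in lowest terms, so a factor common to all 4 libraries would not show.

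Promoter sequence is shown for LTBP2 and PMEPA1, which changed most, and for SKIL, whose first exon is one of the listed splicing events. Each window runs from 250 bases before to 50 bases after a RefSeq start site (GRCh38.p14). Capitals mark the motif CAGAC or its reverse complement GTCTG, the core of the element that SMAD3 and SMAD4 bind, and no other motif was searched. The windows are chr14:74612188-74612487 on the minus strand for LTBP2, chr20:57709966-57710265 on the minus strand for PMEPA1, the 1 of its 4 windows with 2 matches, and chr3:170357465-170357764 on the plus strand for SKIL.
LTBP2: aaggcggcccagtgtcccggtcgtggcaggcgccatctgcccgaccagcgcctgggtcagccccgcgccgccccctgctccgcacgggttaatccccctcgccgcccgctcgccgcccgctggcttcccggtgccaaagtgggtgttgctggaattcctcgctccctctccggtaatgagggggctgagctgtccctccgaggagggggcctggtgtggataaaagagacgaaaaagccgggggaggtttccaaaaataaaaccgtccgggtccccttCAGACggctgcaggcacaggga
PMEPA1: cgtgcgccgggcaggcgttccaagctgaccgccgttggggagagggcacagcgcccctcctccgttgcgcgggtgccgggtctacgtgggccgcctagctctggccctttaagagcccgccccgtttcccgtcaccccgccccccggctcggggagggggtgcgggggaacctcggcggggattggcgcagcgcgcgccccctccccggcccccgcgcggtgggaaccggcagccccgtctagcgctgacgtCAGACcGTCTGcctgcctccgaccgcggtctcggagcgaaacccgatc
SKIL: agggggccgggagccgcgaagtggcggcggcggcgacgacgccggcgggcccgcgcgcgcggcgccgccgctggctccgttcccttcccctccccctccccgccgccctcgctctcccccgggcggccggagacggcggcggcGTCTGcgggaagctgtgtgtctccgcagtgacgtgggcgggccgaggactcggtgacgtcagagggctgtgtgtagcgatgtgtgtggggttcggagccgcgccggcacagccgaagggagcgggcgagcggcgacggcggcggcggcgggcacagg
The motif was in 15 of 25 windows of the 10 genes (60%), against 45.3% of all 35116 windows. At least 1 window held it in 8 of the 10 genes, against 50% of the 27305 genes in the table. These 2 shares are not like for like. The 10 genes had 25 windows and the 27305 genes had 35116, so the 10 had more windows per gene in which to hold a match. TGFBR1 alone had 8 of the 25 windows, several of them overlapping. TGFB1 and TGFBR2 had no match in these windows. In the window shown, picked for its 2 matches, PMEPA1 carried the motif on both strands with 1 base between. Its other windows held 1, 1 and 0 matches. SKIL and LTBP2 carried the motif once in their only window. A match is a description of the letters and not evidence of binding.

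A cassette exon of LTBP4 had the largest listed difference in splicing among the 10 genes. The exon (chromosome 19, 40622950 to 40623021, hg38, plus strand) has 72 bases, the length of 24 codons with none left over. Where codons begin within it was not examined. It lies inside the coding sequence in 5 of 39 GENCODE v29 transcripts of LTBP4. Of the other transcripts, 1, annotated as a retained intron, has the junction that skips it. The sequence is shown because both junction events below join to it, with the exon in capitals between the last 30 bases of the exon before and the first 30 bases of the exon after.
LTBP4 with the exon: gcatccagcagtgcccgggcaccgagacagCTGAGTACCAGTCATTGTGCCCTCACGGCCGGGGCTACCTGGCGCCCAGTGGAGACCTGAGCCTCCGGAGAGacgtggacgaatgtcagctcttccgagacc
LTBP4 without the exon: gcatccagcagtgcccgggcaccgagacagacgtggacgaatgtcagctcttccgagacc
PSI, the part of the reads over a set of competing junctions that falls on the examined one, was given for both sides of the exon against the junction that skips it. For the junction into the exon (40622667 to 40622950), PSI was 91.7% and 91.4% in knockdown libraries, against 70.8% and 66.5% in wild-type libraries. For the junction out of it (40623021 to 40623604), PSI was 92.3% and 90.2% in knockdown, against 61.2% and 68.1% in wild type. Both knockdown libraries lay above both wild-type libraries on either side, and both sides read the same exon, so they are not separate evidence. Groups did not overlap in 54.2% of all tested events.

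The difference was 22.9 points into the exon (SE 8.39; 95% interval 2.71 to 43.2) and 26.6 points out of it (SE 8.54; 5.97 to 47.2). Neither passed adjustment over 3744 events in limma (unadjusted p = 0.0319 and 0.0192; adjusted p = 0.264 and 0.259). Unadjusted p under 0.05 with a difference of 10 points or more held for 18.4% of all events, and adjusted p under 0.05 for 0.107% of them. The table lists only events with a spread of 0.15 or more over the libraries, so large differences are part of how an event came to be listed, and the reads behind each PSI are not given.

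**Figure D4:**
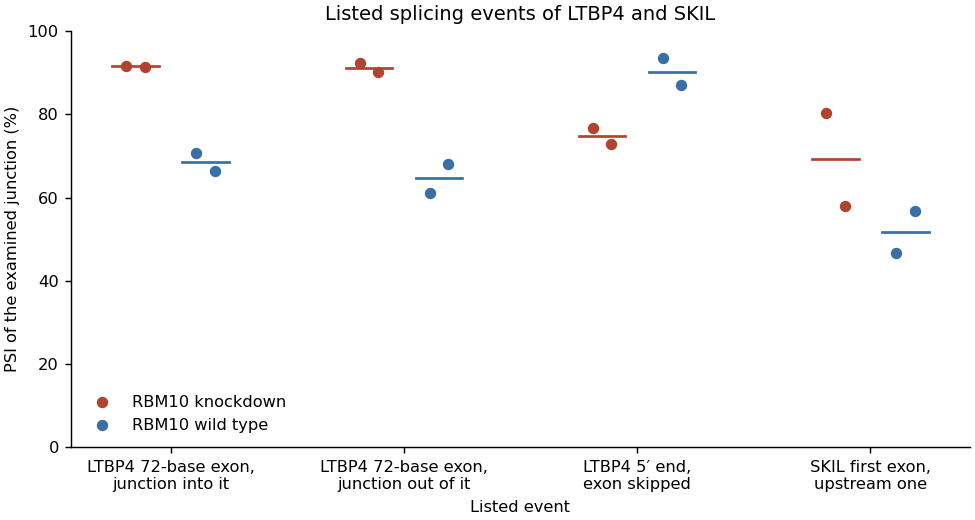
PSI of the 4 listed events in each library, with points for single libraries and a line for the mean of 2. Both LTBP4 exon junctions were at 90.2% or more in knockdown and between 61.2% and 70.8% in wild type, and the LTBP4 event near the 5′ end went the other way.

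At the 5′ end of LTBP4, the examined junction (40597380 to 40599197) skips sequence that the background junction (40597380 to 40598563) enters. Its PSI was 76.6% and 72.9% in knockdown libraries, against 93.5% and 87.0% in wild-type libraries, so both knockdown libraries lay below both wild-type libraries. The difference was -15.5 points (SE 8.56; 95% interval -36.2 to 5.15; adjusted p = 0.308). The background junction ends inside an annotated exon (40598525 to 40598622) of 1 transcript, which GENCODE v29 marks for nonsense-mediated decay.

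In SKIL, the event compares 2 first exons whose ends lie 882 bases apart, and both splice to position 170359699 on chromosome 3. The upstream first exon, whose promoter is printed above, ends at 170357763 in 4 transcripts, 3 of them protein coding, and the downstream one ends at 170358645 in 1 noncoding transcript. PSI of the upstream junction was 80.3% and 58.1% in knockdown, against 46.7% and 56.9% in wild type. The lower knockdown library was close to the higher wild-type library. The difference of 17.4 points (SE 10.8; 95% interval -8.51 to 43.4) did not pass (adjusted p = 0.345). The other 8 genes had no listed event.

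Other genes of the pathway were counted in 4 lists with the same test, beside 15.3% called higher and 7.03% called lower over all tested genes. The lists were chosen with earlier results of these data known, so where they overlap those results the counts give no independent support. Among genes for release and activation of latent TGF-beta, 10 of 15 tested rose and 1 fell, with a median log2 change of 0.83. PLAT and ITGB6 reached 1 RPKM in knockdown only, so the filter favoured their call, and of the 13 genes that reached it in both groups 8 rose. TGM2, the transglutaminase that crosslinks LTBPs to matrix, was at 125 and 122 RPKM in knockdown, against 31.6 and 34.0 RPKM in wild type. FBN1, the fibrillin that anchors LTBPs, was at 5.42 and 6.66 RPKM in knockdown, against 1.29 and 1.08 RPKM in wild type. FURIN, the protease that cleaves the TGF-beta propeptide, was at 35.8 and 33.9 RPKM in knockdown, against 14.3 and 15.5 RPKM in wild type. PLAT, which makes plasmin from plasminogen, was at 3.09 and 2.42 RPKM in knockdown, against 0.544 and 0.390 RPKM in wild type. ITGB5, an integrin subunit, fell to 44.7 and 42.2 RPKM in knockdown, against 55.3 and 56.9 RPKM in wild type (adjusted p = 0.0224), a call that did not hold without knockdown replicate 1 (0.0754), knockdown replicate 2 (0.182) or wild-type replicate 2 (0.0591), nor under the replicate block (0.0972). The 4 named that rose had adjusted p from 3.05e-06 to 8.42e-05 in limma.

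Of 20 tested TGF-beta target genes, 12 rose and 3 fell, ANGPTL4, TPM1 and SNAI1, with a median log2 change of 0.71. With the replicate number as a block in limma, TPM1 and SNAI1 did not pass (adjusted p = 0.0611 and 0.126), while ANGPTL4 did (0.00357). Without a filter on low values the same held (0.0526 and 0.104, against 0.0372 for ANGPTL4). With a library left out, log2 changes ran from -0.47 to -0.32 for TPM1 and from -0.48 to -0.29 for SNAI1. Those of ANGPTL4 ran from -0.69 to -0.49. TGFBI, a secreted matrix protein, was at 841 and 814 RPKM in knockdown, against 351 and 358 RPKM in wild type (adjusted p = 1.49e-05). CCN2, a matricellular protein, was at 3.16 and 3.08 RPKM in knockdown, against 3.73 and 3.72 RPKM in wild type, and did not pass (adjusted p = 0.231). The largest increases in the list were in FN1, COL1A1, IL11 and COL4A1, with log2 changes of 2.23, 2.07, 1.96 and 1.74.

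In the intracellular part of the pathway, the shares called were near those over all genes. Of 15 tested SMADs and SMAD regulators, 2 rose and 1 fell, with a median log2 change of 0.06. SMURF2, a ubiquitin ligase for SMADs and receptors, rose to 8.36 and 8.48 RPKM in knockdown, against 4.89 and 4.66 RPKM in wild type (adjusted p = 0.00146). SMAD2 was at 6.54 and 7.05 RPKM in knockdown, against 5.096 and 4.27 RPKM in wild type (adjusted p = 0.0224), and SMAD3 was at 9.11 and 10.3 RPKM in knockdown, against 12.9 and 12.5 RPKM in wild type (adjusted p = 0.0411). With a library left out, the SMAD2 call did not hold in every fit and the SMAD3 call held in none. The log2 change of SMAD2 then ran from 0.35 without wild-type replicate 2 to 0.56 without wild-type replicate 1. That of SMAD3 ran from -0.44 without knockdown replicate 2 to -0.28 without knockdown replicate 1. With the replicate number as a block in limma, adjusted p was 0.0534 for SMAD2 and 0.141 for SMAD3. Without a filter on low values it was 0.078 and 0.0819. SMAD4, SMAD7 and SKI, the closest relative of SKIL, had log2 changes of 0.14, 0.20 and -0.09 and did not pass (adjusted p = 0.41, 0.222 and 0.617). Of 6 tested ligands, receptors and co-receptors outside the 10 genes, BAMBI, a pseudoreceptor, rose and GDF15 fell (adjusted p = 0.0443), and the median log2 change was 0.06. Without a filter on low values neither passed in limma (adjusted p = 0.0513 for BAMBI and 0.151 for GDF15). The log2 change of GDF15 ran from -0.67 without wild-type replicate 1 to -0.26 without wild-type replicate 2. A further 9 genes of that list lay under the filter, and the difference between lists was not tested.

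**Figure D5:**
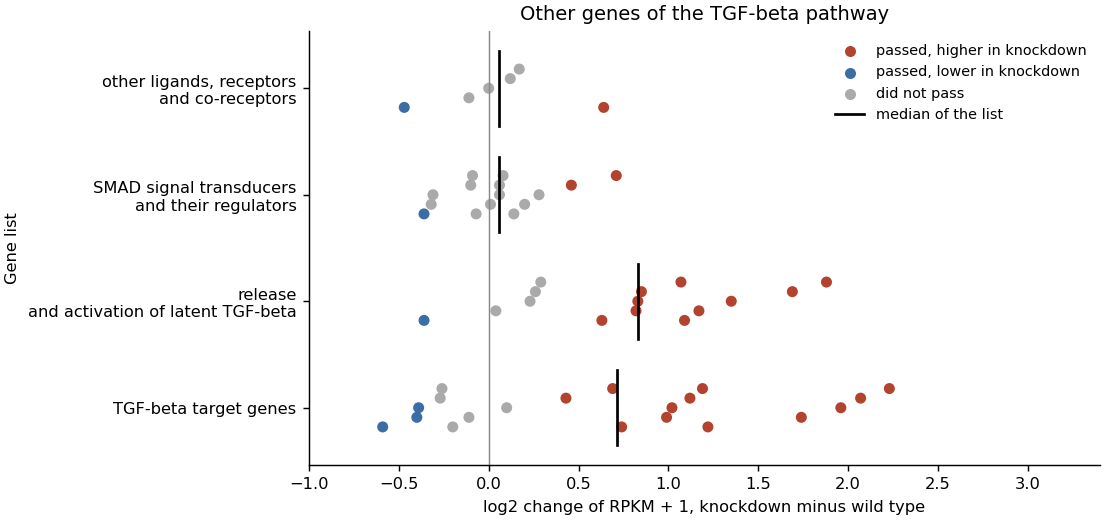
Log2 change of each tested gene in the 4 pathway lists, coloured by whether it passed limma's test, with a black line at each list's median. Medians were 0.83 and 0.71 for release and target genes and 0.06 for SMAD regulators and for other ligands and receptors.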

How the data were processed

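The authors deposited a table whose values have the form of RPKM, a unit inferred from the values since the file names none, and a table of PSI as a fraction from 0 to 1. The submitters' processing notes name STAR 2.6.1 and hg38, while the read counter, the annotation, the splicing caller and any use of strand were not given in the sources used. Single-exon coding genes of GENCODE v29 were rare in the RPKM table (1.73% of 980, against 74.9% of those with several exons), so its values appear to rest on junction reads. Steps of the values gave relative depth and, in 98% of tested genes, whole numbers of reads.

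For expression, log2(RPKM + 1) was fitted with limma (version 3.58.1, R 4.3.3; eBayes, trend on, no covariate) over 10182 genes whose mean reached 1 RPKM in knockdown or wild type. PSI was fitted as a fraction over 3744 events with 4 values, calling adjusted p under 0.05 with a difference of 0.1 or more. Tests are two-sided, adjusted by Benjamini-Hochberg. Both fits were first run on simulated data with independent noise in each library, and an outcome was required of the expression fit only. Members, lists and tests were chosen with earlier results of these data known, and lists overlapping those results give no independent support. Named beside the 10 genes were RBM10, up to 4 called genes per list and direction with the largest change, close partners, of which 1 is not reported here, and the 3 nearest profiles; opposite-strand neighbours were named after their values were seen. Groups came from the titles.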

Additional observations from a re-analysis of the deposited data

How the results depend on the processing

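Of the 10 genes, 8 or 9 passed as higher and 0 as lower under every alternative run. Exceptions among single genes were SKIL, with log2 changes of 0.35 (quantile normalization) and 0.51 (no filter) past the threshold no longer and a range of 0.37 to 0.64 with a library left out, and TGFBR2, not called in any fit, whose log2 change ran from -0.14 without wild-type replicate 2 to 0.09 without wild-type replicate 1. Over all genes, 796 were higher at a mean of 5 RPKM or more, and 322 were lower without a filter and 413 (without knockdown replicate 1) to 657 (without wild-type replicate 2) with a library left out. Among calls, 68.5% were higher, and 52.5% after quantile normalization. At a mean of 5 RPKM or more SKIL was not tested, and fewer genes were tested over all. Without a filter all 17041 genes were tested.

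The labels give no pairing, so the numbers were not taken as pairs. Deviations of same-numbered libraries had a correlation of -0.444. Deviations within knockdown and within wild type were thus related, while the main fit takes the libraries as independent. With the replicate block, 438 genes were lower, all members kept their calls, and 62 PSI events passed, against 4 without it and 0 with any library left out; no event of LTBP4 or SKIL passed in any setting. With the numbers crossed, chosen after seeing the data, 2466 genes were higher and 1730 lower.

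In the lists, higher counts were 0 for other ligands and receptors (no filter; mean of 5 RPKM or more) and 1 for SMAD genes (no filter; replicate block), with 1 to 2 when a library was left out. Lower counts for SMAD genes were 2 (quantile; cyclic loess) and 0 (no filter; replicate block), with 0 to 1 left-out; those for release genes were 0 (replicate block), with 0 to 1; those for targets were 5 (quantile) and 1 (no filter; replicate block), with 1 to 3; and those for other ligands ran from 0 to 1. At a mean of 5 RPKM or more BAMBI, with means of 4.41 RPKM in knockdown and 2.49 RPKM in wild type, was not among the genes tested. The higher count of 0 for other ligands there is therefore not a failed test of BAMBI. The causes were not tested. Depth behind each PSI is unknown, which limits the splicing results.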
